A study of Mus musculus with 3 samples.

Results

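The natural killer (NK) cells of the adult mouse lacrimal gland (LG) were taken from single-cell RNA sequencing (scRNAseq) counts, in which a unique molecular identifier (UMI) stands for 1 captured RNA molecule. A barcode was kept when it held more than 500 UMIs, more than 200 genes and less than 15% mitochondrial UMIs. It was taken as an NK cell when *Klra8*, *Klre1*, *Klra4*, *Ncr1*, *Xcl1* and *Gzma* together gave at least 3 UMIs, when *Cd3d*, *Cd3e*, *Cd3g*, *Tcrg-C1*, *Epcam*, *Col1a1* and *Pecam1* gave 0 UMIs, and when *Csf1r* and *C1qa* together gave at most 1 UMI. This rule found 306 cells among 19592 kept barcodes. Since measured UMIs of the 6 genes chose the cells, the levels of these 6 genes are given below as a description without a test.

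The glands came from C57BL/6J mice aged 2 months, with no genetic change or treatment. Library female 1, library male 1 and library male 2 were each made from 6 glands of 3 mice that were combined before digestion, so the spread between libraries is a spread between pools and not between animals. The core facility and the day differed between the female library and the male ones, so that with 1 female library these cannot be told apart from sex. No test between the sexes was made for this reason. Called barcodes numbered 6422 to 9737 per library with 40609390 to 63066640 UMIs.

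NK cells are innate lymphocytes that kill stressed, infected or transformed cells without prior priming and release interferon gamma and chemokines. They carry no rearranged antigen receptor and weigh signals from germline-encoded activating receptors, many of which signal through the adaptors DAP12 (*Tyrobp*), DAP10 (*Hcst*) and the Fc receptor gamma chain (*Fcer1g*), against inhibitory receptors of the Ly49 (*Klra*) and CD94/NKG2 (*Klrd1* with *Klrc* genes) families that read MHC class I. Killing runs through granules that hold perforin and granzymes. Type 1 innate lymphoid cells share many of these genes, and the gate used here does not keep them apart from NK cells.

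The female library held 196 NK cells, library male 1 held 50 and library male 2 held 60. These were 2.36% (exact binomial 95% interval 2.05 to 2.71) of 8298 kept barcodes in female 1, 0.896% (0.666 to 1.18) of 5582 in male 1 and 1.05% (0.803 to 1.35) of 5712 in male 2. The mean over libraries was 1.44 ± 0.806% (SD, n = 3). The female share lay above both male intervals, and the male intervals overlapped. This and all other intervals given here cover counting error alone. The NK cells of female 1 were also the deepest: the median was 2638.5 UMIs per NK cell in female 1, 1571.5 in male 1 and 1061.5 in male 2. Tear-product transcripts of acinar cells, which float free in the suspension, made up 37.1, 59.8 and 63.5% of the UMIs in NK cells in the same order. The median of UMIs outside tear-product and mitochondrial genes, called own UMIs from here on, was therefore 1624.5, 598.5 and 406.5 per NK cell. When each kept barcode was thinned to 400 own UMIs and the rule was applied again, a step chosen after the data had been seen, NK cells made up 1.61% (125 of 7774 cells, interval 1.34 to 1.91), 0.500% (23 of 4602, 0.317 to 0.749) and 0.551% (25 of 4536, 0.357 to 0.813). The female share again lay above both male intervals. Barcodes under 400 own UMIs had been left out first, which took 2 NK cells from female 1, 10 from male 1 and 28 from male 2, and before thinning the barcodes that remained gave 2.50, 0.869 and 0.705%.

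T cells were counted in the same suspensions to set the NK cells in the lymphoid compartment. A T cell was a barcode with at least 2 UMIs of *Cd3d*, *Cd3e* and *Cd3g*. There were 102, 29 and 38 T cells in female 1, male 1 and male 2, which gave 1.92, 1.72 and 1.58 NK cells per T cell. The ratio thus differed less between libraries than the share of all kept barcodes, but these counts were not matched for depth. After thinning to 400 own UMIs, 125, 23 and 25 NK cells stood beside 45, 17 and 14 T cells. The ratio then spread more widely between libraries. Few of the NK cells looked like mixtures: scores for doublets marked 3, 2 and 1 of them in the 3 libraries. The libraries shared 11 to 17 kept barcodes pairwise. None of these was an NK cell in both libraries, and 1 NK barcode was also a kept barcode of another library.

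**Figure D1:**
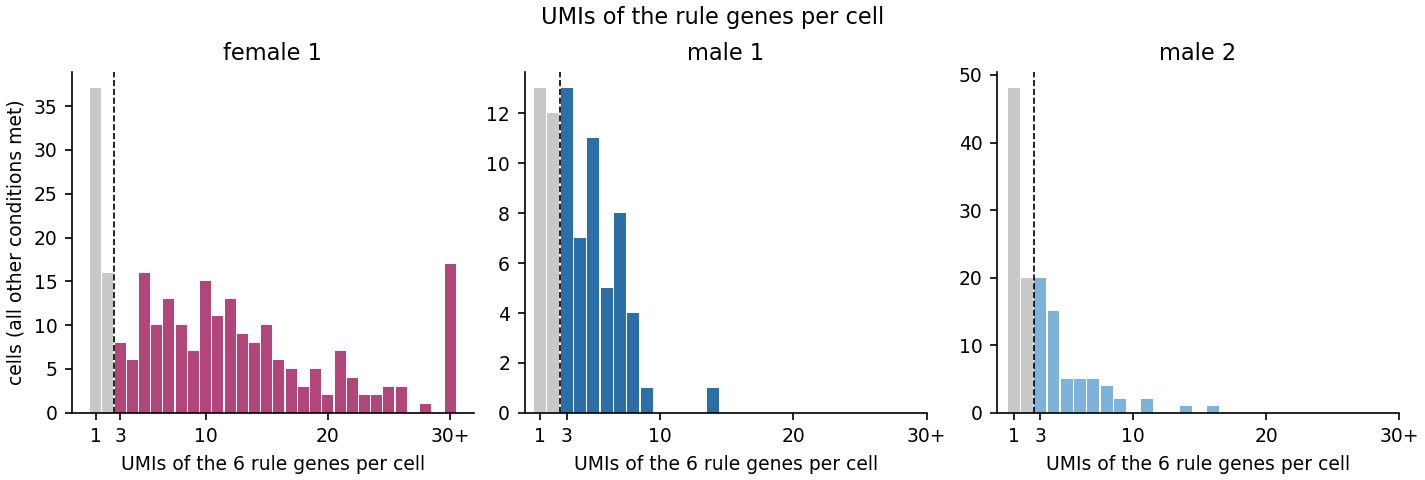
UMIs of the 6 genes of the rule per cell (x axis) against the number of cells that met all other conditions (y axis, a separate scale per panel), for libraries female 1, male 1 and male 2. Coloured bars to the right of the dashed line are NK cells, grey bars are cells with 1 or 2 UMIs, cells with 0 UMIs are not drawn, and the last bin holds cells with 30 or more. In female 1 the NK cells spread up to 61 UMIs, whereas in male 1 and male 2 they crowd near the limit of 3 and reach 14 and 16.

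Among the 6 genes of the rule, *Xcl1*, which encodes the chemokine lymphotactin that draws cross-presenting dendritic cells, was seen in 83.0% of the NK cells. Its level, in UMIs per 1000000 own UMIs (CPM), was 2988 in female 1, 3184 in male 1 and 4756 in male 2. *Klre1*, a lectin-like receptor of NK cells, was seen in 61.1% of cells at 951, 905 and 595 CPM. The Ly49 receptor genes *Klra4* (Ly49D, activating) and *Klra8* (Ly49H, activating) were seen in 50.7 and 45.4% of cells. *Klra4* stood at 1230.0, 993 and 1189 CPM and *Klra8* at 834, 438 and 760 CPM. *Gzma*, encoding the granule protease granzyme A, was seen in 38.6% of cells at 1184, 1782 and 2576 CPM. *Ncr1*, which encodes the activating receptor NKp46, was seen in 37.9% of cells at 396, 380 and 429 CPM. Of the 306 cells, 25 were chosen through 1 gene alone, which was *Xcl1* in 18, *Gzma* in 6 and *Klra4* in 1. UMIs of 2 of the genes were seen in 82 cells, of 3 in 80, of 4 in 65, of 5 in 44 and of all 6 in 10.

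The rule has a limit of 3 UMIs, and the cells on both sides of it were looked at. In cells just inside, with 3 UMIs (8, 13 and 20 in the 3 libraries), *Nkg7* was at 1910.2, 1500.3 and 1613 CPM and *Tyrobp* at 1501, 1962 and 1613 CPM. In cells just outside, with 2 UMIs (16, 12 and 20), *Nkg7* was at 1237, 569 and 977 CPM and *Tyrobp* at 1237, 1422 and 2329 CPM. With 0 UMIs of the 6 genes, *Nkg7* was at 6.14, 9.30 and 13.1 CPM and *Tyrobp* at 155, 235 and 221 CPM. In each library the cells just outside the limit lay above the cells with none of the 6 genes for both markers, and below the cells just inside for *Nkg7*.

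The window around the start of 4 of the genes that carry the results is printed from RefSeq (build GRCm38.p6), because Runx and T-box factors are known regulators of NK cell genes: *Ncr1* (chr7:4337465-4337764, plus strand), *Gzma* (chr13:113100932-113101231, minus strand), *Nkg7* (chr7:43436888-43437187, plus strand) and *Klrk1* (chr6:129623815-129624114, minus strand). Each runs 5′ to 3′ from 250 bases before to 50 bases after the annotated gene start. Capitals mark the Runx word TGTGGT or its reverse complement ACCACA, and the T-box word AGGTGTGA, whose reverse complement is TCACACCT. The words do not overlap each other in these windows.
*Ncr1*: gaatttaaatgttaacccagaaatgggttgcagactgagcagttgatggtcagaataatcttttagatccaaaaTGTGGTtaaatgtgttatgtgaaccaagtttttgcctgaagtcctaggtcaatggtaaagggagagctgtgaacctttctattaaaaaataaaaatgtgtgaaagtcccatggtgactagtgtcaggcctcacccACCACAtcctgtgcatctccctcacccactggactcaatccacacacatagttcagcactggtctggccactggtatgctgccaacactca
*Gzma*: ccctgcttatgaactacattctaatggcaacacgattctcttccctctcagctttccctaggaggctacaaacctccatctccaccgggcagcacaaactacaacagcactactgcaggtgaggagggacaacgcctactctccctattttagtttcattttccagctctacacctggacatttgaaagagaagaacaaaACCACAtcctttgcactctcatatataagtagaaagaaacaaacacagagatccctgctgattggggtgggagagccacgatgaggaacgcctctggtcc
*Nkg7*: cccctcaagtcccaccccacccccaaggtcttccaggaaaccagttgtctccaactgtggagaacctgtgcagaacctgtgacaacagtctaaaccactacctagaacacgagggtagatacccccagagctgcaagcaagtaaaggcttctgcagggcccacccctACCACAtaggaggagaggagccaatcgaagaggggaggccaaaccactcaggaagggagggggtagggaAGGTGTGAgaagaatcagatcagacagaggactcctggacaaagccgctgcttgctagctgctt
*Klrk1*: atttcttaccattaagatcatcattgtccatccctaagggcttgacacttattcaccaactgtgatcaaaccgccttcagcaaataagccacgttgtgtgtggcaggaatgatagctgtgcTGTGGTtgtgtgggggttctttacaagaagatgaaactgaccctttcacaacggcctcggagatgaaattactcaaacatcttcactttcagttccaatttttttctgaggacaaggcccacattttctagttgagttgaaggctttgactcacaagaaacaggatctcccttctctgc
The T-box word stands in *Nkg7* alone, 14 bases before the start. Runx words stand 176 and 41 bases before the start of *Ncr1*, 50 before *Gzma*, 83 before *Nkg7* and 129 before *Klrk1*. Of 16 genes looked up (the genes of the rule and leading genes of the comparisons), 12 were in the table, and *Tyrobp*, *Klrd1*, *Il2rb* and *Ccl4* were not. The Runx word was in 8 of the 12 windows and in 16.9% of 27025 promoter windows of the same length. The T-box word was in 1 of the 12 and in 1.27% of all. A match is a match of letters and was not tested as a binding site.

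Genes outside the rule were used to check the name of the cells. *Tyrobp* was at 2113 CPM in female 1, 1869 in male 1 and 1684 in male 2 (1889 ± 215, SD, n = 3) and was seen in 80.1% of NK cells, against 7.10% of T cells. *Fcer1g* was at 1853, 1636 and 2312 CPM (1934 ± 345) and in 80.4% of NK cells, against 12.4% of T cells. *Nkg7*, a granule membrane protein of killer lymphocytes, was at 2004, 1344 and 1751 CPM (1699 ± 333) and in 75.8% of NK cells. Free RNA was set beside these shares in barcodes over 500 UMIs that had not been called as cells: *Nkg7* was in 0.202, 0.0663 and 0.0773% of them and *Tyrobp* in 0.787, 0.328 and 0.320%. No uncalled barcode over 500 UMIs (58183 to 70227 per library) met the gene conditions of the rule.

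Most defining genes of other cells were at or near 0. Of the 10 T cell genes, *Cd8a*, *Cd8b1*, *Cd4* and *Cd6* had 0 UMIs in the NK cells and *Trac* had 6 UMIs in all. *Trbc1* and *Trbc2*, whose constant-region transcripts are known from NK cells without a rearranged receptor, were at 355, 204 and 330.3 CPM and at 224, 234 and 198 CPM. *Trdc* gave 18 UMIs (38.3, 87.6 and 33.0 CPM). The T cell list summed to 555 to 716 CPM in NK cells and to 2676 to 3279 CPM in T cells. Among 8 macrophage and monocyte genes 3 were at 0, *Lyz2* and *Adgre1* included, and the list summed to 19.1 to 117 CPM. B cell genes *Cd79a* and *Ms4a1* and all 3 neutrophil genes had 0 UMIs. Of the 9 genes of type 2 innate lymphoid cells 2 were at 0, and the list summed to 87.6 to 264 CPM in NK cells against 7198 to 12488 CPM in the ILC2-type cells described further on, which were in part chosen with it. Epithelial genes (0 of 5 at 0) summed to 276 to 661 CPM, fibroblast genes (0 of 5 at 0) to 0 to 199.5 CPM, mast cell genes (3 of 5 at 0) to 0 to 117 CPM and endothelial genes (2 of 4 at 0) to 0 to 33.0 CPM. Dendritic cell genes (2 of 6 at 0) summed to 71.1 CPM in female 1, 1256 in male 1 and 958 in male 2, from the MHC class II genes of few cells described further on. The part of these genes in the results was not tested.

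The activating receptors *Klra4*, *Klra8* and *Ncr1* of the rule are given above and are not on the list of 11 used here. Their UMIs helped to choose the cells, so their levels are not ranked against the genes of this list. This list was led by *Klrk1* (NKG2D), which reads stress-induced ligands. *Klrk1* was at 823 CPM in female 1, 526 in male 1 and 462 in male 2. A UMI of it was held by 56.2% of NK cells (interval 50.4 to 61.8). *Klrb1c* (NK1.1) was at 358, 29.2 and 297 CPM, with 1 UMI in male 1, and was seen in 30.7% of cells. *Klrc2* (NKG2C, a partner of CD94) was at 216, 146 and 66.1 CPM. Lower counts came from *Klrb1f* (189, 58.4 and 132 CPM), *Slamf7* (107, 87.6 and 33.0 CPM) and *Cd226*, the adhesion receptor DNAM-1 (51.9, 29.2 and 132 CPM). *Fcgr3*, the Fc receptor CD16, gave 7 UMIs in 2.29% of cells. All 11 activating receptors on the list gave at least 1 UMI. Their sum, without the receptors of the rule, was 2075 CPM in female 1, 964 in male 1 and 1222 in male 2.

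The list of inhibitory and checkpoint receptors was led by *Klrd1* (CD94), at 910.2, 438 and 826 CPM and with a UMI in 57.2% of cells (51.4 to 62.8). CD94 also pairs with NKG2C, named above among the activating receptors. A level of *Klrd1* or *Klri2* therefore does not tell whether the signal inhibits. *Klri2*, another lectin-like receptor, was at 262, 175 and 264 CPM, and *Cd160* at 128, 58.4 and 198 CPM. *Klrc1* (NKG2A), the inhibitory partner of CD94, gave 20 UMIs and *Klrg1*, a receptor of mature NK cells, 8 UMIs, none of them in the male libraries. The checkpoint genes *Lag3* and *Tigit* and the lectin-like gene *Klri1* gave 0 UMIs in 306 cells, which allows a share of cells with a UMI of up to 0.980%. Shares depend on depth. After thinning to 500 own UMIs, which left out 3, 16 and 40 NK cells, *Klrk1* was seen in 33.2%, *Klrd1* in 34.0%, *Klrb1c* in 17.4% and *Klrc2* in 13.0% of 247 cells, against 8.06, 8.87, 0 and 1.61% of 124 thinned T cells (0 of 124 allows up to 2.42%).

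Among the adaptors, *Hcst* was at 489, 175 and 330.3 CPM in NK cells and at 493, 578 and 637 CPM in T cells. Each kinase and adaptor of the list of 18 gave at least 1 UMI. *Lck* was at 189, 58.4 and 165 CPM, *Zap70* at 76.5, 87.6 and 33.0 CPM and *Cd247* (CD3 zeta) at 73.8, 117 and 33.0 CPM. *Syk*, the kinase that docks to DAP12, was at 62.9, 58.4 and 0 CPM. These kinase genes and *Cd247* rested on 0 to 69 UMIs per library, so the libraries could not be set apart.

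**Figure D2:**
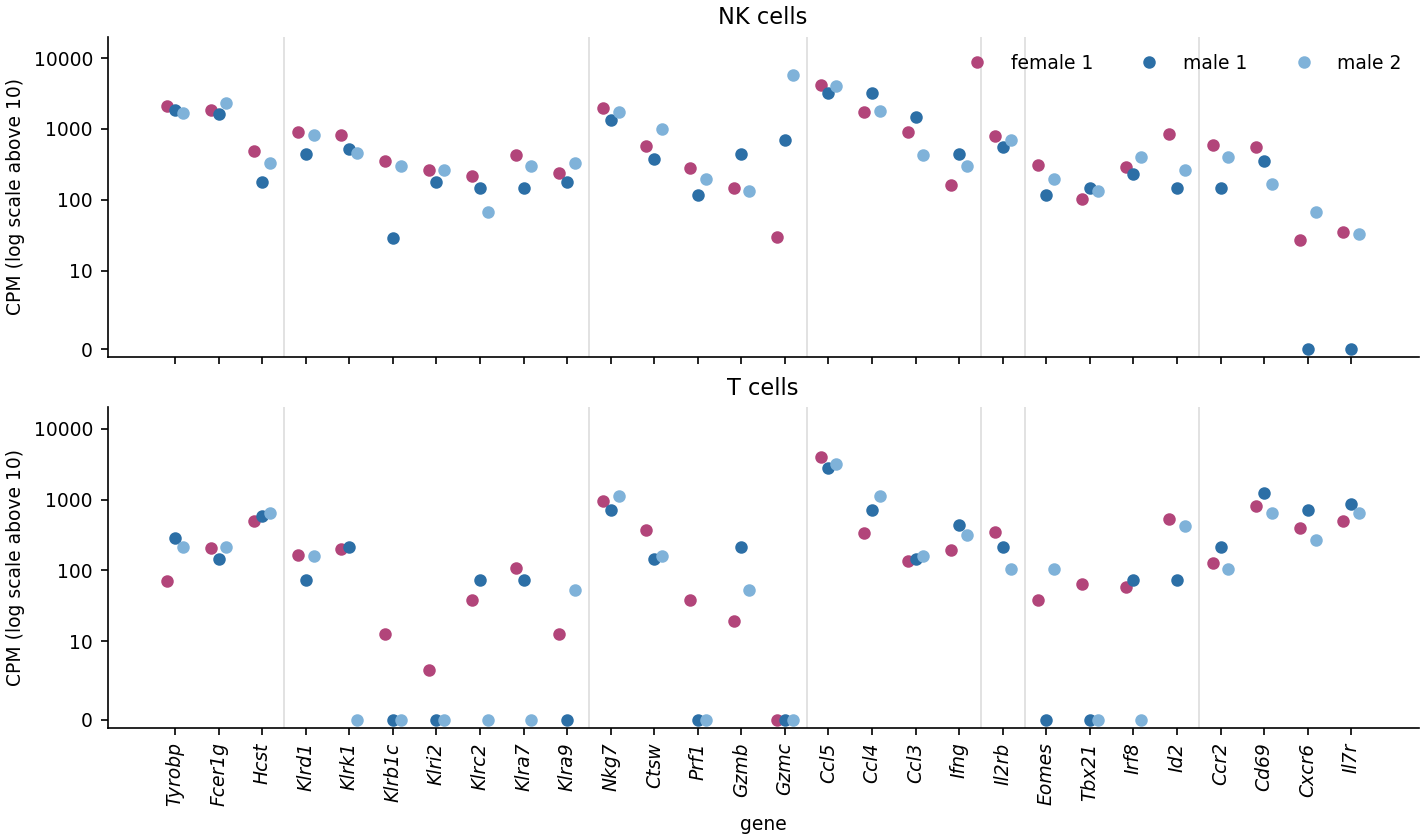
Level of genes in CPM of own UMIs (y axis, log scale above 10 and linear below) in NK cells (top) and T cells (bottom). Genes (x axis) are grouped from left to right as adaptors, receptors, granule genes, cytokines, a cytokine receptor, transcription factors, and trafficking or residency genes. Each point is 1 library, and there is no error bar. *Tyrobp* and *Fcer1g* lie between 1636 and 2312 CPM in NK cells and between 70.4 and 289 CPM in T cells, *Ccl5* lies at a like level in both, and *Gzmc* spreads from 30.1 to 5714 CPM over the NK libraries.

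Ly49 genes are switched on in part of the NK cells each, so a cell carries a subset of them. Counting 10 *Klra* genes, 65 NK cells held no UMI of any, 80 held UMIs of 1 gene, 73 of 2, 61 of 3 and 27 of 4 or 5. In female 1, 87.2% of NK cells held at least 1 of them, in male 1 60.0% and in male 2 66.7%, in the order of depth except between the male libraries. *Klra4* and *Klra8* were seen together in 92 cells, *Klra4* without *Klra8* in 63, *Klra8* without *Klra4* in 47, and neither in 104. Both genes belong to the rule, so cells without them are less likely to be counted. Outside the rule, *Klra7* (Ly49G, inhibitory) was at 429, 146 and 297 CPM and in 29.4% of cells, *Klra9* (Ly49I, inhibitory) at 238, 175 and 330.3 CPM and in 19.0%, and *Klra3* (Ly49C) at 137, 117 and 231 CPM and in 11.4%. *Klra1* (Ly49A) was at 183, 58.4 and 33.0 CPM. *Klra5*, *Klra10* and *Klra17* gave 2, 2 and 1 UMIs. T cells held a UMI of any of the 8 *Klra* genes outside the rule in 11.2% of cells, and NK cells in 53.6%.

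Near-identical copies limit what the *Klra* values mean. In the last 500 bases of the transcripts, which a 3′ library reads, 38.7% of the 60-base words of *Klra9*, 32.4% of *Klra10* and 21.2% of *Klra3* also occurred in another gene. For *Klra7* it was 17.3%, for *Klra8* 6.35% and for *Klra4* 2.49%. The values of *Klra9*, *Klra10* and *Klra3*, with *Klrc1* (37.5%), *Klrb1b* (20.4%) and *Ly6c2* (28.6%), are uncertain for this reason. *Tyrobp*, *Fcer1g*, *Klrd1*, *Klrk1*, *Ncr1*, *Xcl1*, *Gzma* and *Gzmc* shared no such word.

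**Figure D3:**
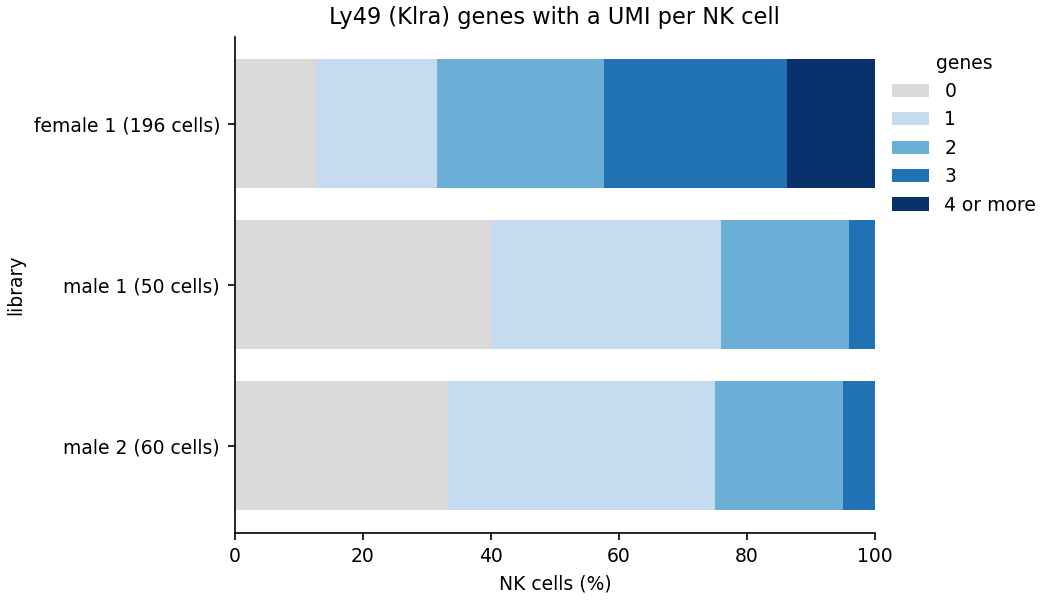
Share of NK cells (x axis, percent) by the number of 10 *Klra* genes with a UMI (shades from 0 to 4 or more), 1 bar per library (y axis). In female 1 the shades for 3 and for 4 or more hold 56 and 27 of 196 cells, whereas in male 1 and male 2 they hold 2 and 3 cells and no cell has 4. The bars are not corrected for depth, which is highest in female 1.

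Cytotoxic granule genes other than *Gzma* and *Nkg7* were spread unevenly. *Prf1*, which encodes the pore-forming perforin, was at 284, 117 and 198 CPM and in 24.8% of NK cells. *Gzmb* (granzyme B) was at 145, 438 and 132 CPM and in 13.7% of cells. *Ctsw*, a cathepsin of killer lymphocytes, was at 577, 380 and 991 CPM, and *Srgn*, the proteoglycan that packs granules, at 877, 1051 and 1057 CPM. *Gzmk* and *Gzmm* gave 2 and 3 UMIs in female 1 and 0 in the male libraries. *Fasl* was at 54.7, 146 and 165 CPM.

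Chemokines of the CC family were abundant. *Ccl5* (RANTES) was at 4141, 3213 and 4063 CPM (3805 ± 515, SD, n = 3). *Ccl4* was at 1758, 3213 and 1784 CPM and *Ccl3* at 891, 1489.5 and 429 CPM, the highest in male 1 for both. *Ccl4* was also found free, at 653, 199 and 248 CPM in uncalled barcodes, where 7.09, 1.77 and 1.80% held a UMI of it. *Ifng*, the effector cytokine of NK cells, was at 161, 438 and 297 CPM, and *Tnf* at 62.9, 29.2 and 0 CPM. *Il17a* had 0 UMIs. *Csf2* gave 7 UMIs. The receptor chain *Il2rb*, which NK cells need for interleukin-15, was at 801, 555 and 694 CPM and *Il2rg* at 273, 292 and 297 CPM. *Il18r1* was at 128, 58.4 and 198 CPM.

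*Eomes*, a T-box factor of mature NK cells, was at 309, 117 and 198 CPM and in 28.4% of cells (23.4 to 33.8), and *Tbx21* (T-bet) was at 101, 146 and 132 CPM. In 14 cells both were seen, in 73 *Eomes* alone, in 26 *Tbx21* alone and in 193 neither. *Irf8* was at 287, 234 and 396 CPM, *Klf2* at 279, 292 and 495 CPM and *Tcf7* at 145, 58.4 and 66.1 CPM.

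Genes of resident type 1 lymphocytes were counted per cell. At least 1 UMI of *Itga1* (CD49a), *Itgae* (CD103) or *Cxcr6* was found in 31 NK cells (10.1%). *Cxcr6* was at 27.3, 0 and 66.1 CPM and *Itgae* at 0, 29.2 and 66.1 CPM. *S1pr5* and *Cx3cr1*, which serve exit into and life in the blood, gave 4 and 2 UMIs. *Ccr2* was at 601, 146 and 396 CPM. The early activation and retention gene *Cd69* was at 555, 350.5 and 165 CPM.

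*Gzmc*, which encodes granzyme C, set a small group of NK cells apart. It gave 11 UMIs (30.1 CPM) in female 1, 24 (701 CPM) in male 1 and 173 (5714 CPM) in male 2. These came from 5, 5 and 9 cells. Cells with at least 2 UMIs numbered 2 of 196 in female 1 (1.02%, interval 0.124 to 3.64), 2 of 50 in male 1 (4.00%, 0.488 to 13.7) and 8 of 60 in male 2 (13.3%, 5.94 to 24.6). The 8 cells of male 2 held 37, 36, 23, 22, 20, 19, 11 and 4 UMIs, the 2 of male 1 held 17 and 4, and the 2 of female 1 held 5 and 3. In uncalled barcodes *Gzmc* was in 0.00427, 0.00323 and 0.0137%. The intervals of male 2 and female 1 did not overlap, and *Gzmc* UMIs per cell were highest in male 2. The group and its limit of 2 UMIs were chosen after the values had been seen.

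All 12 of these cells held *Xcl1* and 11 held *Fcer1g*, while 7 held *Tyrobp*, 6 *Nkg7* and 6 *Ccl5*. *Ncr1* was seen in 0 of 12 and in 39.5% of the other 294 NK cells, *Klre1* in 2 and in 62.9%, *Klra4* in 2 and in 52.0%, and *Klrk1* in 2 and in 57.8%. *Tbx21* was seen in 3 and in 12.6%, and *Eomes* in 1 and in 29.3%. Among resident genes, *Cxcr6* was seen in 2 and in 2.38%, *Tnfsf10* in 3 and in 10.2%, and *Itgae* in 1 and in 0.680%. *Itga1* was seen in 0 and in 7.82%, and *Cd69* in 3 and in 34.7%. These are descriptions without a test, the 6 genes of the rule being among them, and 8 of the 12 cells came from the shallowest library. Whether the 12 are NK cells or type 1 innate lymphoid cells was not tested. Without the 12 cells, *Xcl1* in male 2 was at 3370.0 CPM in place of 4756 and *Gzma* at 3045 in place of 2576. Outside the NK cells, 7 kept barcodes held 2 or more *Gzmc* UMIs (2 in female 1 and 5 in male 2). One of them, in male 2, held 60 *Gzmc* and 14 *Xcl1* UMIs and was kept out by 1 UMI of *Epcam*.

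**Figure D4:**
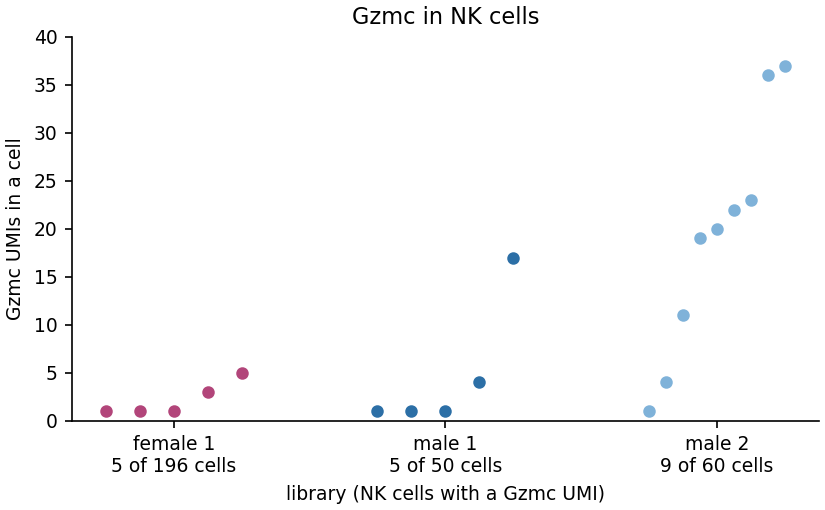
*Gzmc* UMIs in each NK cell with at least 1 (y axis) by library (x axis, with the number of such cells of all NK cells), 1 point per cell. In male 2 most of the 9 cells lie between 11 and 37 UMIs, in male 1 1 of 5 does (17 UMIs), and in female 1 none does (1 to 5 UMIs).

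Levels in NK cells of the female and male libraries were set side by side without a test. Of 243 genes on the lists, 128 had at least 20 UMIs in NK cells. In 7 of the 128 the exact Poisson interval of female 1 lay clear of both male intervals. *Id2* (856, 146 and 264 CPM in female 1, male 1 and male 2), *Ets1* (418, 146 and 99.1 CPM), both transcription factors that NK cell development needs, and *B2m*, the MHC class I light chain (3482, 1782 and 1751 CPM), were higher in female 1. *Gzmc*, *H2-Aa* (30.1, 263 and 462 CPM), *Cd74* (35.5, 818 and 330.3 CPM) and the immediate early gene *Junb* (1107, 1986 and 2114 CPM) were lower. *Cd74* and *H2-Aa* belong to MHC class II, and 1 cell gave 27 of the 51 *Cd74* UMIs. Core, day and depth moved with sex in these libraries and cannot be told apart from it.

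NK cells were then compared with T cells, with CD8 T cells (T cells with a *Cd8a* or *Cd8b1* UMI) and with ILC2-type cells, the innate lymphoid cells chosen by at least 3 UMIs of *Gata3*, *Rora*, *Il7r*, *Il1rl1* and *Areg*. The question was which genes outside the gates set NK cells apart from the lymphocytes next to them. UMIs were summed per library and kind of cell and tested with edgeR's quasi-likelihood test with the library as a block, and genes were called at an adjusted p (Benjamini-Hochberg, over all genes tested) under 0.05. The comparisons share the NK sums, so they are not independent of each other. Because the filter on low counts keeps few genes at this depth (381 to 390), and a gene that passes only through its level in NK cells had to differ, the counts of list genes below are no support for the lists.

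Against T cells (169 cells), NK cells were higher in the adaptors *Tyrobp* and *Fcer1g*, the chemokines *Ccl3* and *Ccl4* and the receptors *Klrd1* and *Klrk1*, and lower in *Trac*, *Trbc2*, *Il7r* and *Thy1*. Of 384 genes, 20 were higher (5.21%) and 18 lower (4.69%) in NK cells. *Tyrobp* had a log2 fold change of 4.17 ± 0.38 (SE; edgeR adjusted p = 0.000263), with 70.4, 289 and 212 CPM in T cells, below each NK library. *Fcer1g* had 3.25 ± 0.22 (edgeR adjusted p = 0.000104) with 205, 145 and 212 CPM in T cells. Their ranges in NK and T cells did not overlap, and both were higher in 3 of 3 libraries.

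*Ccl3* was higher by 2.66 ± 0.30, *Klrd1* by 2.44 ± 0.25, *Klrk1* by 2.10 ± 0.34 and *Ccl4* by 1.92 ± 0.29 on the log2 scale. *Klrk1* in T cells was at 198 and 217 CPM in female 1 and male 1 and at 0 in male 2. *Ugcg*, the first enzyme of glucosylceramide synthesis, was higher by 2.01 ± 0.22, and *Anxa2*, a calcium-dependent membrane binder, by 1.77 ± 0.23. *Nkg7* was higher by 0.97 ± 0.16 and *Il2rb* by 1.39 ± 0.27. The MHC class I genes *H2-K1* and *H2-D1* were higher by 0.71 ± 0.10 and 0.69 ± 0.13, calls that were lost with the filter of 15 UMIs described further on. *Ccl5* did not pass, at 0.12 ± 0.09 with 4022, 2820.4 and 3132 CPM in T cells (edgeR adjusted p = 0.526), nor did *Ifng*, at -0.19 ± 0.26 (edgeR adjusted p = 0.768).

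Lower in NK than in T cells were *Trac* by a log2 change of -4.94 ± 0.43, the interleukin-7 receptor chain *Il7r* by -4.03 ± 0.37, *Ly6c2* by -3.34 ± 0.29 and *Thy1* by -2.04 ± 0.29. *Il7r* was at 35.5, 0 and 33.0 CPM in NK cells and at 506, 868 and 637 CPM in T cells, with no overlap. *Trbc2* was lower by -1.93 ± 0.20. The calcium-binding genes *S100a4* (-2.62 ± 0.44) and *S100a6* (-1.25 ± 0.27) and *Tnfaip3*, a brake on NF-κB signalling (-1.26 ± 0.26), were lower as well.

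By list, 10 of 38 tested list genes were higher and 6 lower, where 5.21% and 4.69% of all genes were. Of 3 adaptor and kinase genes tested 2 were higher, *Hcst* not passing. Of 5 cytokine and chemokine genes 2 were higher, and of 3 granule genes 1. All 3 T cell genes tested were lower, which the split of the cells on CD3 UMIs favoured. Of 10 immediate early and heat shock genes 1, *Junb*, was lower (-0.60 ± 0.14), a call lost with the filter of 15 UMIs. The median log2 change was 3.25 for the adaptors, 0.12 for the cytokines, -0.10 for the immediate early genes and 0.01 over all genes tested. The female library carried the result: without it 0 genes were higher and 0 lower of 331 by edgeR (23 and 18 at an unadjusted p under 0.05), while 45 and 38 passed without male 1 and 54 and 50 without male 2. Without the block of libraries 9 were higher and 7 lower, and DESeq2 called 8 and 8.

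With the filter relaxed to 15 UMIs over all sums, a setting chosen after the data had been seen, 48 of 5048 genes were higher (0.951%) and 47 lower (0.931%) in NK than in T cells. Higher were 5 of 9 activating receptors (*Klrk1*, *Klrc2*, *Klrb1c*, *Klrb1f*, *Klrb1a*), 3 of 4 *Klra* genes (*Klra3*, *Klra7*, *Klra9*), 5 of 14 granule genes (*Prf1*, *Gzmb*, *Nkg7*, the serpin gene *Serpinb6b* and *Gzmc*, whose UMIs lay mostly in male 2) and the transcription factors *Eomes* and *Irf8*. *Prf1* was at 38.4, 0 and 0 CPM in T cells and *Irf8* at 57.6, 72.3 and 0 CPM. Of 9 T cell genes 8 were lower, which the split on CD3 UMIs favoured here too. Among 10 genes of resident type 1 lymphocytes 0 were higher and *Cxcr6*, *Tmem176a* and *Tmem176b* were lower. *Cxcr6* was at 397, 723 and 265 CPM in T cells, above each NK library. Among 10 circulating NK cell genes *S1pr1* and *Ly6c2* were lower.

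**Figure D5:**
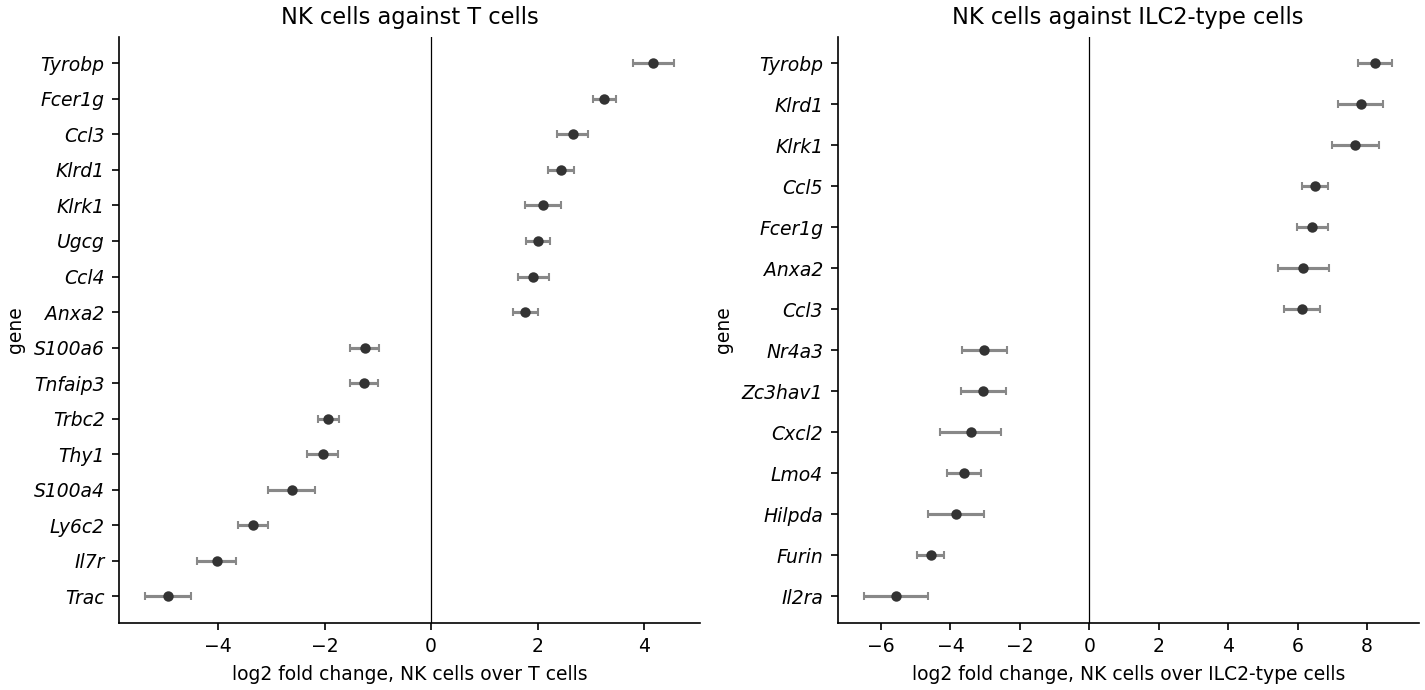
Log2 fold change of the leading genes (y axis) in NK cells over T cells (left) and over ILC2-type cells (right), on an x axis of log2 units where values above 0 are higher in NK cells. Points are edgeR estimates over 3 libraries, and bars are ± 1 SE. On the left *Tyrobp* leads at 4.17 and *Trac* is lowest at -4.94, and on the right *Tyrobp* leads at 8.23 and *Il2ra* is lowest at -5.56; *Nkg7*, with 0 UMIs in ILC2-type cells, is not drawn.

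CD8 T cells are the closest T cells to NK cells in function, and 36 were found (27, 5 and 4). *Tyrobp* had 0 UMIs in them, so it was at least 40.3-fold higher in NK cells, against a floor of 3 UMIs over the group. *Fcer1g* had 1 UMI, a ratio of 109 with a counting interval of 19.6 to 4330. Of 390 genes, 13 were higher (3.33%) and 5 lower (1.28%) in NK cells. *Klrd1* was higher by 2.85 ± 0.47 on the log2 scale, *Il2rb* by 2.05 ± 0.41, *Ccl3* by 1.85 ± 0.41 and *Klrk1* by 1.44 ± 0.37 (edgeR adjusted p = 0.00289). *Anxa2* and *Ugcg* were higher by 2.34 ± 0.67 and 1.95 ± 0.56. *Il2rb* was at 209, 0 and 0 CPM in CD8 T cells, and *Klrk1* and *Anxa2* also had 0 UMIs in the male ones. *Klrd1* was at 94.9, 0 and 824 CPM in CD8 T cells and at 910.2, 438 and 826 CPM in NK cells. Male 2 thus showed no difference in *Klrd1*. *Ccl3* was at 266, 288 and 0 CPM in CD8 T cells. A floor of 3 UMIs is 865 CPM in male 1 and 1236 CPM in male 2 there. Where *Il2rb*, *Klrk1*, *Anxa2*, *Klrd1* or *Ccl3* had 0 UMIs, the floor lay above the NK level. Those male counts of 0 therefore cannot show a difference. The calls of these genes and of *Ugcg* were lost with the filter of 15 UMIs over all sums. Among the alternatives, *Klrk1* kept its call in 6 refits and lost it in 6.

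*Nkg7* and *Ccl5* did not pass this test. *Nkg7* was at 1669, 1729 and 3708 CPM in CD8 T cells, a log2 difference of -0.04 ± 0.29 (edgeR adjusted p = 0.972), and *Ccl5* at 6583, 7493 and 5768 CPM, a difference of -0.70 ± 0.23 (edgeR adjusted p = 0.0525). All 4 granule genes tested failed to pass. Lower in NK cells were *Thy1* (-2.52 ± 0.46), *Apoe* (-2.42 ± 0.53), *Trbc2* (-2.28 ± 0.45), the purine salvage gene *Aprt* (-2.19 ± 0.45) and *S100a4* (-1.87 ± 0.48). By list, 8 of 38 list genes tested were higher and 1, *Trbc2*, lower, and the median log2 change was 3.84 for the 4 adaptor and kinase genes (3.17 with *Tyrobp* at its floor) against 0.07 over all genes. The male sums of CD8 T cells held 3470 and 2427 own UMIs. Without female 1, 3 genes were higher and 2 lower, without male 1 10 and 9, and without male 2 13 and 13. DESeq2 called 1 and 2, and without the block 5 and 3 passed.

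ILC2-type cells (213, 16 and 11) held few or no UMIs of NK cell receptors, adaptors and *Nkg7*, as far as these genes lay outside the gates. Their gate allowed at most 2 UMIs of the 6 NK genes, so cells rich in NK genes had been kept out beforehand. The ratios below are therefore between cells chosen to differ in such genes. *Nkg7* had 0 UMIs in them, at least 193-fold lower than in NK cells against the floor of 3 UMIs. *Tyrobp* had 2 UMIs (ratio 309, counting interval 85.4 to 2559), *Klrd1* 1 UMI (260, 46.4 to 10294) and *Klrk1* 1 UMI (232, 41.4 to 9193). *Ccl5*, at 41.6, 269 and 0 CPM in ILC2-type cells, was higher in NK cells by 6.50 ± 0.37 on the log2 scale (edgeR adjusted p = 2.29e-05), *Fcer1g* by 6.42 ± 0.44 and *Ccl3* by 6.12 ± 0.52. *Il2rb* was higher by 2.78 ± 0.42 and *Ctsw* by 5.49 ± 0.61. *Anxa2*, also higher against both kinds of T cells, had 2 UMIs in ILC2-type cells. In all, 33 of 381 genes were higher (8.66%) and 39 lower (10.2%).

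*Il2ra*, the high-affinity interleukin-2 receptor chain, was at 8.20, 0 and 0 CPM in NK cells and at 378, 404 and 462 CPM in ILC2-type cells, a log2 change of -5.56 ± 0.92 (edgeR adjusted p = 0.00410). The protease gene *Furin* was lower by -4.57 ± 0.39, the lipid droplet gene *Hilpda* by -3.84 ± 0.81 and the transcription cofactor *Lmo4* by -3.60 ± 0.49. *Cxcl2*, *Zc3hav1* and the nuclear receptor *Nr4a3* were lower by -3.42 ± 0.89, -3.05 ± 0.65 and -3.02 ± 0.66. *Cxcl2* was at 5.47, 935 and 0 CPM in NK cells, so male 1 stood apart.

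Of 13 immediate early and heat shock genes tested, 5 (*Fosb*, *Junb*, *Nr4a1*, *Nr4a3*, *Zfp36*) were lower in NK than in ILC2-type cells and the chaperones *Hspa1a* (3.98 ± 0.55) and *Hspa1b* (2.20 ± 0.48) were higher, where 10.2% and 8.66% of all genes were lower and higher. With the filter of 15 UMIs described further on, the calls of these 5 were lost and those of *Hspa1a* and *Hspa1b* were kept. *Junb* and *Zfp36* were lower in 2 of 3 libraries and the others moved 1 way in 3 of 3. These genes are known to respond to digestion, whose part was not tested. By list, 12 of 39 list genes were higher and 9 lower, and the median log2 change was 5.38 for the 4 cytokine and chemokine genes tested and -0.79 for the 13 immediate early genes, against 0.11 over all genes. Without female 1, 10 genes were higher and 14 lower, without male 1 67 and 42, and without male 2 66 and 103. The male sums of ILC2-type cells held 7425 and 4324 own UMIs.

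With the filter of 15 UMIs over all sums, 163 of 5449 genes were higher (2.99%) and 101 lower (1.85%) in NK than in ILC2-type cells. Higher were 8 of 9 activating receptors, 5 of 8 genes of the inhibitory and checkpoint list and 4 of 4 *Klra* genes. So were 6 of 13 granule genes and 6 of 19 transcription factors, among them *Eomes*, *Tbx21* and *Irf8*. *Eomes* and *Prf1* had 0 UMIs in ILC2-type cells. Of 4 T cell genes tested 1, *Trdc*, was higher. Lower were all 3 ILC2 genes tested, *Il2ra*, *Hs3st1* and *Calca*, the chemokine receptor *Cxcr6* and the cytokines *Csf2* and *Il13*. The choice of ILC2-type cells by other ILC2 genes favoured the first of these results. Against CD8 T cells the same filter called 4 of 4278 genes higher (0.0935%), namely *Tyrobp*, *Fcer1g*, *Klra7* and *Gzmc*, and 7 lower (0.164%), with *Trac*, *Il7r* and *Ly6c2* among them.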

How the data were processed

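Per the labels, 3 libraries of LG cells (1 female, 2 male, each a pool of 3 mice) were made with the 10x Genomics platform. The authors deposited counts of UMIs for 32285 genes in each barcode, made with Cell Ranger 6.1.2 on mm10 per the submitters' processing notes, before their removal of free RNA and doublets. The annotation release is not given in the sources used here.

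Cells were gated by gene counts and not clustered. The members, lists and tests were chosen with earlier results of these data known. CPM were computed per 1000000 UMIs outside 130 tear-product and 13 mitochondrial genes, which with the genes of the gates were left out of tests. T cells and ILC2-type cells met the same limits on UMIs, genes, mitochondrial share and genes of other cells as NK cells. ILC2-type cells also held at least 1 UMI of *Ptprc*, *Cd52* or *Ptprcap* and at most 2 UMIs of the 6 NK genes. Sums per library and kind of cell were tested with edgeR 4.0.16 in R 4.3.3 (filterByExpr, TMM, glmQLFit and glmQLFTest, library as a block because both kinds of cell came from 1 suspension). On simulated sums of the same depth with known changes, the test recovered 98.1, 66.7 and 78.9% of 2-fold changes among 384, 390 and 381 genes (T cells, CD8 T cells, ILC2-type cells) and called 3.13, 2.31 and 3.54% of unchanged genes. The simulation gave all genes the same spread and each change the same size in every library. These shares therefore do not tell how often real changes of that size are found. Since libraries are pools, p-values rest on 3 pools and not on animals. The test borrows its estimate of spread from other genes, so a p-value does not measure the spread of 1 gene between pools alone. This weighs most against CD8 T cells, where p-values lay close to those of a normal distribution. NK sums held 365857, 34239 and 30276 own UMIs in female 1, male 1 and male 2, so low genes in the male libraries rest on single UMIs.

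The text names the genes of the rule, genes of 25 lists (243 genes), and in each comparison up to 8 genes with the largest change in each direction among genes called, with 1 sign in 3 libraries and at least 10 UMIs in the higher cells, leaving out unnamed gene models and ribosomal protein genes. Some genes that met this rule are not reported here. Doublets were marked with scrublet in scanpy 1.11.5 up to 0.8% per 1000 barcodes and left in, being removed as an alternative. Other alternatives were DESeq2 1.42.0 and its size factors, total UMIs as scaling, other filters on low counts, no block, leaving out each library, a limit of 5 UMIs for NK cells, 5% mitochondrial UMIs, and subtraction of free RNA. Shares have exact binomial and CPM exact Poisson intervals. Sequence shared between genes was counted on GENCODE transcripts. Python 3.11.15 with scipy 1.17.1 was used.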

Additional observations from a re-analysis of the deposited data

How the results depend on the processing

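Few genes passed the filter at the depth of the male NK, CD8 T and ILC2-type cells, and the female library held most UMIs. Against T cells (20 genes higher and 18 lower), DESeq2 called 8 and 8, genes with at least 1 UMI 53 and 38, genes with at least 15 UMIs 48 and 47, and free RNA subtraction left 6 and 5. Leaving out each library in turn gave 0 to 54 higher and 0 to 50 lower. Against CD8 T cells (13 and 5), DESeq2 called 1 and 2, the filter of 1 UMI 4 and 10, that of 15 UMIs 4 higher, and the limit of 5 UMIs for NK cells 8 and 10. Free RNA subtraction left 8 higher, and leaving out each library gave 3 to 13 higher and 2 to 13 lower. Against ILC2-type cells (33 and 39), DESeq2 called 21 higher, the filter of 1 UMI 57 higher and that of 15 UMIs 163 and 101. Subtracting the free RNA of uncalled barcodes over 500 UMIs, chosen after seeing the data, called 22 higher. Leaving out each library gave 10 to 67 higher and 14 to 103 lower. The other scalings (DESeq2 size factors and total UMIs) kept each count within 1.5 times. The fit without the replicate block, that is without pairing both kinds of cell of a library, called 9 higher and 7 lower against T cells, 5 and 3 against CD8 T cells, and 33 and 36 against ILC2-type cells.

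The share of NK cells over all libraries (1.56%) was 1.81% with a limit of 2 UMIs, 1.35% with 4, 1.21% with 5, 1.77% under 5% mitochondrial UMIs, 0.974 to 1.83% with each library left out, and 1.02% with the rule applied after thinning to 400 own UMIs. The female share was 1.61% after thinning. That of male 1 was 0.663% and 0.537% with limits of 4 and 5 UMIs and 0.500% after thinning. That of male 2 was 1.40% with 2 UMIs, 0.700% with 4, 0.438% with 5, 0.786% over 1000 UMIs, and 0.551% after thinning. The shares of NK cells with a receptor UMI fell with thinning to 500 own UMIs, to 33.2% for *Klrk1*, 34.0% for *Klrd1*, 17.4% for *Klrb1c*, 13.0% for *Klrc2*, 13.8% for *Klra7* and 8.50% for *Klra9*. The log2 ratio of female 1 over the mean of the males was 2.77 for *Id2*, 2.45 for *Ets1*, -2.88 for *H2-Aa*, -0.19 for *Junb* and 1.67 for *B2m* with all UMIs as the denominator. It was -4.74 for *H2-Aa*, -0.72 for *Junb* and 1.08 for *B2m* with the limit of 5 UMIs, and 1.01 for *B2m* without doublets. Of the refits of the named genes, 193 of 218 kept their call against T cells (14 of the 25 losses came without female 1), 119 of 163 against CD8 T cells and 192 of 205 against ILC2-type cells, and 0 turned their direction. Beyond the construction of each alternative, the cause of these shifts was not tested.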

Other observations

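Cell cycle genes were seen in a small share of NK cells. At least 2 of 6 such genes (*Mki67*, *Top2a*, *Stmn1*, *Pclaf*, *Birc5*, *Cdk1*) had a UMI in 23 of 306 NK cells (7.52%, interval 4.82 to 11.1), in 9 of 169 T cells (5.33%, 2.46 to 9.87), in 4 of the 36 CD8 T cells among them (11.1%, 3.11 to 26.1) and in 2 of 240 ILC2-type cells (0.833%, 0.101 to 2.98). By library the NK cells with such genes were 14 of 196 in female 1, 6 of 50 in male 1 and 3 of 60 in male 2. *Mki67* was at 101, 87.6 and 66.1 CPM in NK cells and had 0 UMIs in ILC2-type cells. These shares were not thinned to equal depth.

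MHC class II UMIs in NK cells came from few cells. *Cd74* was seen in 13 NK cells of female 1 with 1 UMI each, and in 2 cells each of male 1 and male 2, where 1 cell held 27 UMIs and another 9. The mast cell protease gene *Cma1*, a member of the granule list, gave 12 UMIs in all, of which 11 were in 1 cell of male 1.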
